A study of Ovis aries with 6 samples.

Results

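The miR-148 and miR-152 family was followed in small RNA libraries of longissimus muscle, the long back muscle, of sheep of the breeds Qianhua Mutton Merino (QHMM, 3 libraries) and Small Tail Han (STH, 3 libraries). The members were taken by name: miR-148a, miR-148b and miR-152, with or without an arm, which gave 8 of the 11161 rows of the deposited table and 7 of its 10430 miRNA names. The labels give both breeds as kept under natural conditions, with no treatment apart from the breed. They give no age and do not tie a library to an animal, so that the spread behind each p-value is that between libraries and may be technical. Each library held between 8062231 and 10276427 counts in QHMM and between 8681817 and 11282332 in STH.

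A microRNA (miRNA) is a short RNA cut from a hairpin, and it guides a silencing complex to messenger RNAs that pair with its seed, bases 2 to 8. Each hairpin yields a 5p and a 3p arm, and usually 1 of them, the guide, is kept. In this family the 3p arm is the usual guide. In human and mouse cells the family is known to target the DNA methyltransferase DNMT1. In mouse and human liver miR-148a is known to act on the LDL receptor and on the cholesterol exporter ABCA1, and in mouse myoblasts to favour differentiation. In mammals miR-152 lies in an intron of COPZ2 and miR-148b in an intron of COPZ1, a pair of related genes for coat proteins of transport vesicles. In the RefSeq gene table of sheep (assembly ARS-UI_Ramb), MIR152 lies within COPZ2 as well.

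The 3 guides are printed because their shared seed defines the family. Each is given 5′ to 3′ as the deposited table writes it, with T for U and the seed in capitals.
miR-148a: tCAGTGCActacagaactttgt
miR-152: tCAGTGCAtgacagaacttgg
miR-148b-3p: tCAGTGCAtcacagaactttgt
Counted from the 5′ end, miR-148a and miR-148b-3p were identical at 20 of 22 bases and differed by C9T and T10C, the miR-148a base first. miR-148a and miR-152 were identical at 18 of 21 compared bases, with C9T, T10G and T20G. miR-148b-3p and miR-152 differed by C10G and T20G, the miR-148b-3p base first. All differences lay after base 8, outside the seed. The seed CAGTGCA stood in 5 of all rows, and all 5 were rows of this family. The names that carry it held 54702 counts over the 6 libraries, the 45th highest of 5922 seeds.

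The guides differ at so few bases that reads with mismatches could be assigned to either of 2 members, and the rule the authors used for such reads is not given in the sources used here. Outside the family, no row shared more than 10 bases in a run with any of the 3 guides, on either strand. miR-148a and miR-152 were listed as known sheep miRNAs. miR-148b was not listed under a sheep name. Both of its arms came from 1 predicted hairpin on chromosome 3 (the processing notes name the build Oar_v3.1), whose mature arm carried the rat name miR-148b-3p and whose star arm carried the mouse name miR-148b-5p. A further row, the mouse miR-148b-3p with the same bases as the predicted one, held 1 count in all, against 1717 for the predicted row, which stood for this name.

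miR-148a was the main member of the family in sheep muscle. It had 814, 987 and 899 CPM (counts divided by the library's total over 1 row per name, times 1e6) in QHMM replicates 1, 2 and 3, against 1211, 763 and 924 CPM in STH replicates 1, 2 and 3. The breeds overlapped, and on this scale STH held both the highest and the lowest library. The mean over all libraries was 933 ± 158 CPM (SD, n = 6), 72nd place among the 10430 names.

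miR-152 was the next most abundant guide. It had 280, 349 and 277 CPM in QHMM, against 481, 292 and 290 CPM in STH. STH replicate 1 stood alone at the top, and the other 5 libraries lay within 277 to 349 CPM. The mean was 328 ± 79.3 CPM (SD, n = 6), in 110th place.

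miR-148b-3p, the guide of the third hairpin, was more than 10 times rarer than miR-148a in every library. It had 50.1, 40.2 and 49.6 CPM in QHMM, against 35.9, 30.6 and 37.1 CPM in STH, from 189 to 378 counts per library. Here the breeds did not overlap, since the lowest QHMM library lay above the highest STH library. The mean was 40.6 ± 7.81 CPM (SD, n = 6), in 302nd place.

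The order miR-148a, miR-152, miR-148b-3p, miR-148b-5p held in all 6 libraries, and the ranges of neighbours in this order did not overlap. Levels of different miRNAs in small RNA libraries also depend on how well each end is joined to the adapters, so that the order is one of counts. Of the counts of the 3 guides, miR-148a took between 71.1% and 73.4% in QHMM and between 70.1% and 73.8% in STH. miR-152 took between 22.6% and 25.4% in QHMM and between 23.2% and 27.8% in STH, and miR-148b-3p between 2.92% and 4.38% in QHMM and between 2.08% and 2.96% in STH. The summed level of the guides was 1248 ± 118 CPM in QHMM and 1355 ± 333 CPM in STH (SD, n = 3 each), with overlapping ranges of 1144 to 1376 CPM and 1086 to 1728 CPM.

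**Figure D1:**
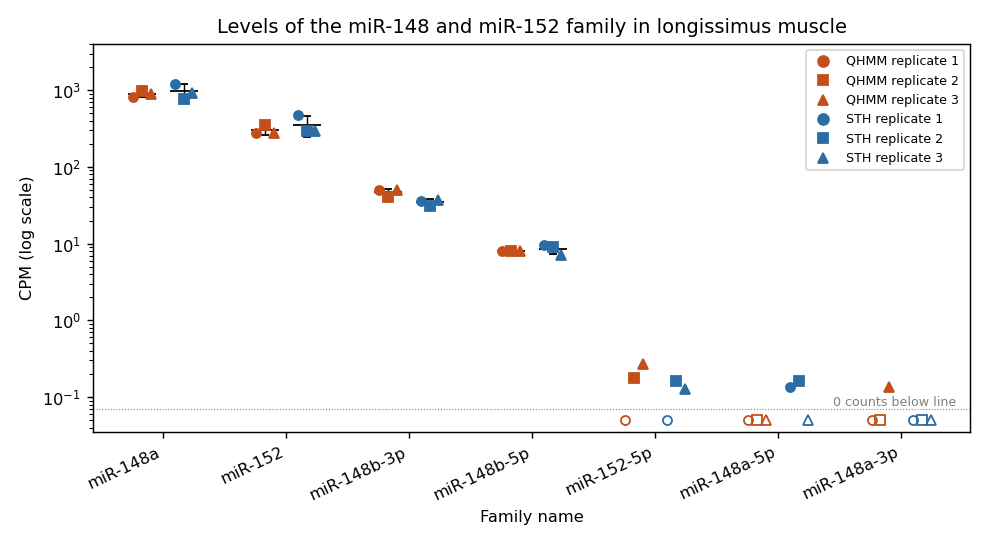
CPM (log scale) of the 7 family names, with QHMM libraries in orange and STH libraries in blue, and 1 symbol per replicate number. Each black mark shows a breed's mean with its SD (n = 3), and open symbols below the dotted line are libraries with 0 counts. The levels step down without overlap from miR-148a (763 to 1211 CPM) to miR-152 (277 to 481 CPM), miR-148b-3p (30.6 to 50.1 CPM) and miR-148b-5p (7.19 to 9.56 CPM), and the last 3 names lie below 0.3 CPM.

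The counts listed for the other arms differed strongly among the 3 hairpins. The 5p arms are printed because, unlike the guides, they share no seed as their rows are written. The seed letters of miR-148a-5p, AAGTTCT, also stand in miR-148b-5p, but begin a base later there. These seeds therefore differ by where the rows start, and the start of the predicted miR-148b-5p row was not tested. miR-148b-5p was read from the predicted sheep hairpin, and the other 2 arms are rat sequences. Sheep reads with other bases at these positions may therefore not have been counted in the rat rows. Rows with the same bases can also differ in counts. The mouse miR-148b-3p row held 1 count, against 1717 for the predicted row with the same bases. How far the kind of row sets the counts of the 5p arms was not tested.
miR-148b-5p: tGAAGTTCtgttatacactcaggc
miR-152-5p: aGGTTCTGtgatacactccgact
miR-148a-5p: aAAGTTCTgagacactctgactc

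miR-148b-5p had 7.95, 8.07 and 7.93 CPM in QHMM, against 9.56, 8.91 and 7.19 CPM in STH, from 45 to 70 counts per library. The QHMM libraries lay within the range of the STH libraries. The coefficient of variation of miR-148b-5p over 6 libraries was 10.1%, below those of the 3 guides (16.9% for miR-148a, 24.2% for miR-152 and 19.2% for miR-148b-3p). Counting error was not taken out of these values, and it weighs most for miR-148b-5p, which had the fewest counts of these names. No steadier level is therefore read from this. miR-148b-5p made up 16.8% of the counts of both arms of miR-148b (346 of 346 plus 1717 counts, exact Clopper-Pearson 95% interval 15.2% to 18.5%, for counting error only).

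miR-152-5p had 0, 1 and 2 counts in QHMM, against 0, 1 and 1 in STH. These 5 counts were 0.0364% of the counts of both arms of miR-152 (Clopper-Pearson 95% interval 0.0118% to 0.0848%). miR-148a-5p had 0 counts in each QHMM library, against 1, 1 and 0 in STH. These 2 counts were 0.0051% of the counts of both arms of miR-148a (interval 0.000617% to 0.0184%). A library with 0 counts allows a level of up to 3 counts. This is 0.398 to 0.538 CPM in QHMM and 0.378 to 0.486 CPM in STH. No breed difference of these 5p arms was therefore detectable at these counts. The interval for miR-148b lay above those for miR-148a and miR-152, which overlapped each other. It sets a predicted sheep row beside rat rows, so that no difference in arm use is read from this. The rat miR-148a-3p, which lacks only the last base of the sheep miR-148a, held 1 count, in QHMM replicate 3.

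The breed comparison asks whether QHMM and STH muscle carry different amounts of these miRNAs. In bulk tissue fewer cells of a type and less RNA per cell cannot be told apart. It was made with edgeR's quasi-likelihood test over 1274 names that passed a filter on low counts, with Benjamini-Hochberg adjustment over all of them. Of the 7 family names, 4 passed the filter and the other 3 (miR-152-5p, miR-148a-5p and miR-148a-3p) were too rare. None of the 4 passed an adjusted p of 0.05, in a table where 2.2% of the names did (0.314% higher in QHMM and 1.88% higher in STH). None of the 4 had an unadjusted p under 0.05 either, against 13.7% of all names tested, and none passed with DESeq2, which called 3.85% of all names.

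For miR-148a the log2 fold change, QHMM over STH, was -0.084 (standard error 0.25, 95% interval -0.63 to 0.47, adjusted p = 0.909 from edgeR). For miR-152 it was -0.21 (standard error 0.29, interval -0.85 to 0.42, adjusted p = 0.784). Both values turned to the other sign without STH replicate 1 (0.080 and 0.035), the library with the highest level of each, and miR-148a also without QHMM replicate 1 (0.0059). No direction between the breeds is therefore given for these guides. For miR-148b-5p the log2 fold change was -0.10 (interval -0.80 to 0.60, adjusted p = 0.912).

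miR-148b-3p had the largest difference of the 4, with 46.6 ± 5.57 CPM in QHMM and 34.5 ± 3.44 CPM in STH (SD, n = 3 each). The log2 fold change was 0.42 (standard error 0.27, 95% interval -0.16 to 1.01, adjusted p = 0.521 from edgeR), and it did not pass the test. It ran from 0.36 to 0.51 over 15 other fits, with adjusted p from 0.477 to 0.811. That the libraries of the breeds did not overlap is shared with 17.2% of all names tested. The breeds also did not overlap on the CPM scaled by TMM factors, with 44.9 to 49.1 in QHMM and 32.8 to 36.0 in STH. The median log2 fold change of the 4 family names was -0.093, with 1 positive and 3 negative, beside 0.031 over all 1274 names.

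**Figure D2:**
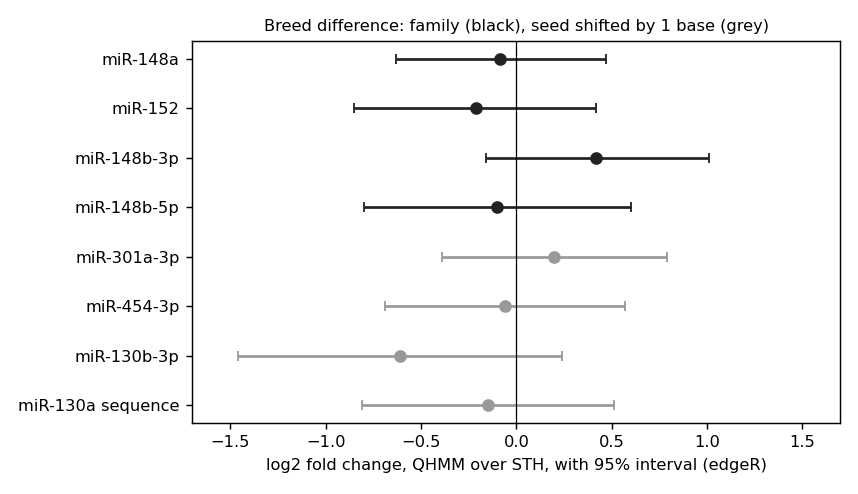
Log2 fold change (QHMM over STH, edgeR) with its 95% interval for the 4 family names tested, in black, and for 4 sequences with a seed shifted by 1 base, in grey. Every interval includes 0, and the miR-148b-3p interval of -0.16 to 1.01 lies farthest to the right among the family.

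Ratios within a library need no scaling, and they were compared by exact permutation tests (two-sided), where 3 libraries against 3 allow no p below 0.10. In the ratio of miR-148b-3p to miR-148a, the QHMM libraries had 6.15%, 4.07% and 5.52%, against 2.97%, 4.01% and 4.01% in STH. The breeds did not overlap, but the gap between QHMM replicate 2 and the nearest STH libraries was smaller than the spread within either breed. The mean log2 ratio was higher in QHMM by 0.51 (exact permutation p = 0.10, adjusted over 6 ratio tests 0.40). Of the other names tested, 13% did not overlap between the breeds in their ratio to miR-148a.

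The ratio of miR-152 to miR-148a was the steadiest. It was 34.4%, 35.3% and 30.8% in QHMM, against 39.7%, 38.3% and 31.4% in STH. The breeds overlapped, with a difference of -0.12 in the mean log2 ratio (exact permutation p = 0.40, adjusted 0.48). The ratio of miR-148b-3p to miR-152 was 17.9%, 11.5% and 17.9% in QHMM, against 7.47%, 10.5% and 12.8% in STH. The difference in the mean log2 ratio was 0.63 (exact permutation p = 0.20, adjusted 0.40), with overlap between the breeds.

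The share of miR-148b-5p in both arms of miR-148b was 13.7%, 16.7% and 13.8% in QHMM, against 21.0%, 22.5% and 16.2% in STH. QHMM replicate 2 lay above STH replicate 3, and the counting intervals of single libraries were wide, such as 10.6% to 17.3% for QHMM replicate 1 and 17.5% to 28.3% for STH replicate 2. The log2 ratio of 3p to 5p, with 0.5 added to each count, was higher in QHMM by 0.52 (exact permutation p = 0.20, adjusted 0.40). For the arms of miR-148a and miR-152, with so few 5p counts, the exact permutation p was 0.40 and 0.60, with adjusted values of 0.48 and 0.60.

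**Figure D3:**
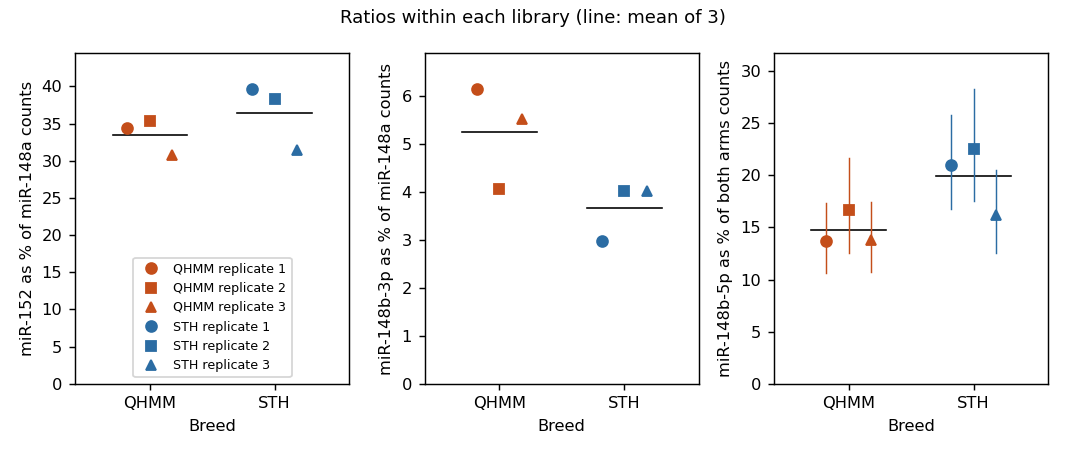
Counts of 1 family member as a percent of another within each library, QHMM left and STH right, with a line at the mean of 3 libraries. The vertical bars in the right panel are exact Clopper-Pearson 95% intervals. miR-152 lies between 30.8% and 39.7% of miR-148a in every library, while miR-148b-3p runs from 2.97% to 6.15% of miR-148a.

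Among the libraries, miR-148a and miR-152 were highest together in STH replicate 1, and miR-148b-3p was not. Over the 6 libraries, Pearson's r of log2 CPM with miR-148a was 0.89 for miR-152 (Spearman's rho 0.60, and r 0.78 without STH replicates 1 and 2, the libraries farthest from the median). It was -0.079 for miR-148b-3p and 0.37 for miR-148b-5p, and -0.72 and -0.068 without the same libraries. These values describe 6 points that share library totals. STH replicate 1 had the lowest summed level of the muscle fibre list (450214 CPM, with 515657 to 546466 CPM in the others), and the highest of the vessel wall list (78140 CPM, 45161 to 71873 CPM in the others) and of the fibroblast list (3617 CPM, 1887 to 2767 CPM in the others). Its red blood cell list was also the lowest (7274 CPM, 8537 to 84275 CPM in the others). Its white blood cell list (1461 CPM) and liver list (180 CPM) lay within the range of the others. In CPM all lists share the library total, so that a lower muscle fibre list by itself raises the rest. The part of other cell types in the levels of miR-148a and miR-152 was not tested.

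Of 307 other known names with a mean of at least 10 CPM, those most like miR-148a by this measure were miR-421-3p (r = 0.92), miR-222-3p (0.87), miR-16-5p (0.86), miR-3120-5p (0.84) and miR-10a (0.82). In 4 of these 5 the highest library was STH replicate 1, as for miR-148a. miR-222-3p had 68.9, 102 and 97.1 CPM in QHMM, against 206, 96.4 and 105 CPM in STH. Without STH replicates 1 and 2, r was -0.18 for miR-3120-5p, 0.48 for miR-10a and 0.70 for miR-421-3p, and it was 0.89 for miR-222-3p and 0.91 for miR-16-5p. At the other end stood miR-15b-5p (-0.81), miR-19a-3p (-0.70), miR-4634 (-0.68), miR-1a-2-5p (-0.67) and miR-197-3p (-0.67). Without the same libraries r was -0.27 for miR-1a-2-5p and between -0.54 and -0.95 for the other 4. miR-15b-5p had 119, 34.6 and 37.5 CPM in QHMM, against 6.83, 34.5 and 30.8 CPM in STH. None of these 10 names passed an adjusted p of 0.05 between the breeds with edgeR.

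**Figure D4:**
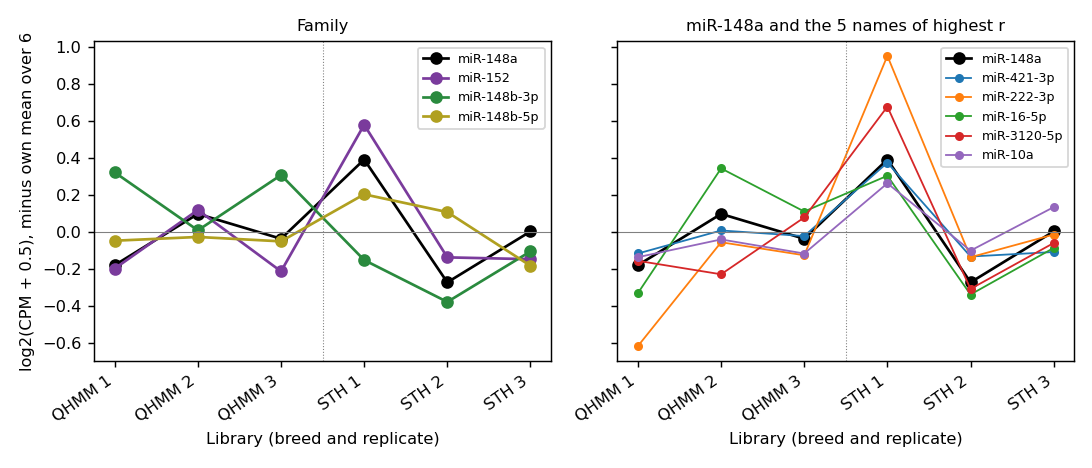
Log2(CPM + 0.5) in each library minus its mean over the 6 libraries, QHMM left and STH right of the dotted line, with lines joining the values of 1 miRNA. Left, miR-148a and miR-152 peak in STH replicate 1 (1211 and 481 CPM), where miR-148b-3p had 35.9 CPM. Right, the 5 names most like miR-148a, of which miR-222-3p had 206 CPM in the same library.

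The spread of miR-148a and miR-152 was set beside that of other abundant names. Of 202 names with a mean of at least 100 CPM, 41 had a lower coefficient of variation than miR-148a and 93 a lower one than miR-152, and the median was 24.9%. miR-451-5p of red blood cells, in contrast, put the summed red blood cell list at 84275 CPM in QHMM replicate 3, against 18942 and 19900 CPM in the other QHMM libraries and 7274 to 13819 CPM in STH. In QHMM replicate 3 miR-148a and miR-148b-3p lay within the range of the other libraries, and miR-152 was at its lowest, 277 CPM, next to 280 CPM in QHMM replicate 1. The part of red blood cells in these levels was not tested. Without this library the log2 fold change was -0.089 for miR-148a, -0.16 for miR-152 and 0.36 for miR-148b-3p.

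A seed moved by 1 base along the same letters, AGTGCAA, marks the miR-130 and miR-301 group, which with miR-148a is known from human and mouse studies to act on cholesterol genes. These sequences are printed to show the 6 letters AGTGCA that they share with the family, with their own seed in capitals.
miR-301a-3p: cAGTGCAAtagtattgtcaaag
miR-130a sequence: cAGTGCAAtgttaaaagggca
miR-454-3p: tAGTGCAAtattgcttataggg
miR-130b-3p: cAGTGCAAtgatgaaagggcat
miR-301a-3p had 129, 90.1 and 105 CPM in QHMM, against 111, 89.3 and 79.1 CPM in STH, more than miR-148b-3p in every library. The sequence of miR-130a was listed under the rat name miR-3590-5p, with 202, 91.0 and 120 CPM in QHMM, against 185, 136 and 127 CPM in STH. miR-454-3p averaged 23.6 ± 3.36 CPM in QHMM and 24.6 ± 4.39 CPM in STH, and miR-130b-3p 2.81 ± 0.112 CPM in QHMM and 4.28 ± 1.67 CPM in STH (SD, n = 3 each). Of 10 names with this seed, 3 passed the filter and 0 of them passed with edgeR or DESeq2 or reached an unadjusted p under 0.05, with log2 fold changes of 0.20, -0.061 and -0.61 for miR-301a-3p, miR-454-3p and miR-130b-3p. The sequence of miR-130a, fitted with no rows merged, had -0.15 (adjusted p = 0.872 from edgeR).

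Lists of miRNAs with related roles held few names past the threshold between the breeds. On the list of cholesterol and lipoprotein miRNAs, known from human and mouse work, 0 of 8 tested names passed with edgeR or DESeq2, and 0 had an unadjusted p under 0.05 (median log2 fold change 0.0059). Its most abundant names were miR-27a (5940 CPM in QHMM and 6318 CPM in STH) and miR-128-3p (2712 CPM in QHMM and 2037 CPM in STH). In this list and in that of fat cell differentiation miR-130a stood by its rat name, a row of 0.327 CPM in QHMM and 0.172 CPM in STH that was too rare to test, and not by the row with its sequence described above. On the list of miRNAs known to act on DNA methyltransferases, led by miR-126a-3p and miR-143, 0 of 7 passed with either tool or had an unadjusted p under 0.05 (median -0.21). On the list of fat cell differentiation, led by miR-143 and miR-27a, 0 of 11 passed with edgeR (median 0.10). An unadjusted p under 0.05 was reached by 3 of the 11 (miR-107, miR-193b-3p and miR-365-3p), against 13.7% of all names, and DESeq2 called 1 of the 11 (miR-365-3p), against 3.85% of all names. Names given here and for the lists that follow because of an unadjusted p or a DESeq2 call were chosen after their values were seen.

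The muscle fibre list had 1 of 7 names past the threshold with edgeR, against 2.2% of all names, and a median of 0.43. An unadjusted p under 0.05 was reached by 3 of the 7 (miR-133, miR-208b-3p and miR-499-5p, against 13.7% of all names), and DESeq2 called 2 (miR-208b-3p and miR-499-5p, against 3.85%). The name called by edgeR was miR-208b-3p, which lies in a slow myosin gene in mouse, with 147 ± 40.4 CPM in QHMM and 60.2 ± 4.96 CPM in STH (SD, n = 3 each, log2 fold change 1.27, adjusted p = 0.0419 from edgeR). It lost the call without QHMM replicate 2 or 3 or any 1 of the STH libraries, with adjusted p from 0.0557 to 0.184, and under the replicate block (0.0719), upper-quartile factors (0.0618), at least 10 counts per library (0.0728) and known names only (0.0778). The log2 fold change stayed between 1.02 and 1.38 in all of these fits. The leading names of the list, miR-1b (the sequence of miR-1) and miR-133, are defining miRNAs of muscle, and the list took 450214 to 546466 CPM of every library.

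Lists of other cell types had no name past the threshold with edgeR. These were red blood cells (3 tested, led by miR-451-5p and miR-144-3p, median 2.03), white blood cells (5 tested, led by miR-150 and miR-142-3p, median 0.29), vessel wall (4 tested, led by miR-145-5p and miR-126a-3p, median -0.26), fibroblasts (2 tested, led by miR-199a-3p and miR-214-3p, median -0.18) and liver (3 tested, led by miR-192-5p and miR-194, median 0.14). DESeq2 called 1 of the 3 red blood cell names (miR-451-5p) and 1 of the 5 white blood cell names (miR-142-3p), against 3.85% of all names. An unadjusted p under 0.05 from edgeR was reached by miR-451-5p, and by 2 of the 5 white blood cell names (miR-142-3p and miR-142-5p), against 13.7% of all names. For the vessel wall, fibroblast and liver lists both counts were 0. No listed name that could be matched was at 0 over all libraries. miR-122-5p, the defining miRNA of liver, where miR-148a is also abundant, averaged 1.25 ± 0.825 CPM in QHMM and 2.45 ± 0.961 CPM in STH (SD, n = 3 each). The summed white blood cell list ran from 1787 to 1962 CPM in QHMM and from 1186 to 1461 CPM in STH without overlap. The breeds also did not overlap for 17.2% of all names tested, miR-148b-3p among them. Within the list, miR-150, miR-142-3p and miR-142-5p had positive log2 fold changes (0.29, 1.03 and 0.71). Those of miR-223-3p and miR-155-5p were negative (-0.23 and -0.35). The part of white blood cells in the level of miR-148b-3p was not tested.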

How the data were processed

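Small RNA of longissimus muscle was selected by gel and sequenced on the Ion Proton. The values the authors deposited are whole, unnormalized read counts for each mature sequence in each library. Oar_v3.1 and DESeq are named in the submitters' processing notes. Not given in the sources used here were the aligner, the miRNA caller and how reads matching several rows were counted. All value columns were mapped to samples by their labels. For each name, without its species prefix, only its most abundant row over all libraries entered the tests, and CPM used the total of these rows (5572865 to 7930202 per library). Breed differences were tested in R 4.3.3 by edgeR 4.0.16 (quasi-likelihood test, robust fit, TMM factors, filterByExpr, Benjamini-Hochberg adjustment over all names, no covariates, standard error from the F statistic), and with DESeq2 1.42.0 as an alternative. Ratios were compared by exact permutation tests in Python 3.11.15 with scipy 1.17.1, with 0.5 added to counts where an arm could be 0. Listed miRNAs were matched by name or by an identical overlap of at least 17 nt shifted by at most 2 nt, a rule set after the names were seen. Text names were all members, the 2 most abundant and every name of each list called by edgeR, and 5 names at each end of likeness to miR-148a. The members and lists were chosen with earlier results of these data known. No replicates were duplicates (chi-square per degree of freedom at least 80.3). The fits were tested on simulated data. Clopper-Pearson intervals cover counting error only, while the intervals of log2 fold changes also cover the spread between libraries. Names with few counts are imprecise.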

Additional observations from a re-analysis of the deposited data

How the results depend on the processing

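No family member passed the threshold under any of the 15 alternative fits, 6 of which left out 1 library each (0 in each). The 28 names that differed between the breeds were 49 with DESeq2 (13 higher in QHMM and 36 higher in STH, against 4 and 24), 64 without a low-count filter (which put the median log2 fold change of all names at -0.34), 8 where every library needed 10 counts, 6 with known names only, and 16 to 35 with each library left out (16 without QHMM replicate 3, 18 without STH replicate 2, 16 without STH replicate 3). The names tested were 930 where every library needed 10 counts, 487 with known names only and 9972 without a filter, against 1274 in the main fit. The cause of these changes was not tested. The log2 fold change with each library left out ran from -0.25 to 0.08 for miR-148a (0.0059 without QHMM replicate 1 and 0.08 without STH replicate 1), from -0.43 to 0.035 for miR-152 (0.035 without STH replicate 1), from 0.36 to 0.46 for miR-148b-3p and from -0.23 to -0.028 for miR-148b-5p. The difference in the log2 arm ratio of miR-152, -0.51, ran from -1.19 to 0.28 in the same way (0.28 without STH replicate 1). It kept its sign for the other 5 ratios. Counts scaled to the total of all rows gave lower levels, 672 CPM for miR-148a, 237 for miR-152, 29.2 for miR-148b-3p and 5.96 for miR-148b-5p, and summed rows gave 672, 237, 29.3 and 5.96. Under the replicate block 26 names were called (22 shared with the 28), with log2 fold changes of -0.086, -0.20, 0.42 and -0.096 for miR-148a, miR-152, miR-148b-3p and miR-148b-5p. Deviations from the breed means correlated by 0.059, 0.24 and 0.12 between same-numbered libraries, so that the numbers were not taken as pairs, although every library correlated best with its own number, which is a hint in the data only. The few counts of their rat rows limit the 5p arms of miR-148a and miR-152. Whether depth or the kind of row sets these counts was not tested.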

Other observations

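Rows with the same bases did not hold the same counts throughout the table. Of 140 sequences that stood in more than 1 row with a count, and in at least 1 row with 100 counts or more, the second row held under 1% of the first for 46 and over 50% for 70. The miR-148b-3p sequence was of the first kind, with 1717 and 1 counts.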
